A study of Caenorhabditis elegans with 8 samples.

Results

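The longevity and stress transcription regulators described here are 10 genes of *C. elegans*, chosen by symbol: *hsf-1*, *skn-1*, *pha-4*, *pqm-1*, *elt-2*, *elt-3*, *hlh-30*, *hcf-1*, *smk-1* and *sir-2.1*. They make up 10 of the 18877 genes on the array and are read by 11 of its 20401 probes. Of the 10, *hlh-30* is listed on the array as W02C12.3 and *smk-1* as F41E6.4. Only *skn-1* has more than 1 probe, and its brighter one was used.

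In *C. elegans*, signalling from the DAF-2 insulin receptor through the AGE-1 phosphoinositide 3-kinase holds the FOXO transcription factor DAF-16 out of the nucleus, and loss of *age-1* extends adult life and raises stress resistance. Several other transcription factors and cofactors act beside DAF-16 in this setting. HSF-1 drives the heat shock genes, SKN-1 the detoxification genes, and PQM-1, ELT-2 and ELT-3 bind GATA-type sites in intestinal and hypodermal genes. PHA-4 is the FOXA factor that specifies the pharynx, and HLH-30 is the TFEB-type factor of autophagy and lysosomal genes. The remaining 3 do not bind DNA in a sequence-specific way: SMK-1 is a phosphatase 4 regulatory subunit needed for DAF-16 function, HCF-1 is a nuclear cofactor known to restrain DAF-16, and SIR-2.1 is a sirtuin deacetylase.

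Whole hermaphrodites of 3 strains, harvested at the late-L4 or young adult stage, were compared with wildtype N2 animals on 2-colour Agilent arrays. The *age-1(mg44)* animals (2 arrays) were homozygotes born to heterozygous mothers of the strain *sqt-1(sc13) age-1(mg44)/mnC1*, and so carried maternal *age-1* product. CY262 (3 arrays) is *sqt-1(sc13) age-1(mg44)* with the integrated transgene *bvIs1*, which restores *age-1* in the intestine, and CY251 (3 arrays) is the same genotype with *bvIs2*, which restores it in neurons. All 3 mutant strains thus carry *sqt-1(sc13)* and *age-1(mg44)*, whereas N2 carries neither. All animals were grown for 72 h at 20°C after arrest as hatched larvae, and the wildtype animals were at a similar or slightly later stage, so strain and stage cannot be told apart in the comparisons with wildtype. The strain was always labelled with Cy3 and wildtype with Cy5, so a dye effect particular to a probe cannot be told apart from a difference between strain and wildtype, whereas it cancels between strains. Each transgene is represented by 1 strain.

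Before any result, the identity of some arrays is in doubt. For 4 of the 8 arrays, the deposited table of log ratios and the array records name different strains. By that table the arrays recorded as CY262 replicates 2 and 3 are CY251, and those recorded as CY251 replicates 2 and 3 are CY262. Their values matched the other strain's column within 1e-05 at 100% of 16775 spots. The records are followed here. The fold changes of *age-1(mg44)* and of both transgenic strains against *age-1(mg44)* do not depend on this assignment, but their p-values do, because all arrays share the fit. By the table's assignment 3702 genes instead of 3709 were called in *age-1(mg44)*, and 7 instead of 5 in the comparison with both transgenic strains. In addition, the scanned image of CY262 replicate 2 was quantified on another day than those of the other arrays, and its strain channel had a median raw intensity of 575.1, against 462.1 to 488.2 on the other arrays. Correlations between arrays across genes ran from 0.636 to 0.938. The *age-1* probe itself was lower than wildtype on every array, with log2 ratios of -1.06 and -1.64 for *age-1(mg44)* animals, -1.03, -1.66 and -1.71 for CY262 and -1.05, -1.88 and -1.43 for CY251. Whether this probe reads the transgenes is not given in the sources used here, so it does not check the labels of the transgenic strains.

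The array software called the signal of all 10 genes well above background in both channels of all 8 arrays, and none saturated. Local background lay between 338 and 362 intensity units. That call leaves room for dim signals. For *hlh-30* the raw intensity was 388.4 to 429.5 in the strain channels and 384.0 to 417.7 in the wildtype channels, which leaves little signal above background. The strain channel was also dim for *smk-1* (395.2 to 548.7), *skn-1* (404.1 to 577.1) and *hsf-1* (416.6 to 579.1). Because the strain channel was dimmer than the wildtype channel for most genes, the raw difference is not the measure of change, and the log2 ratios below are those left after loess normalization.

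**Figure D1:**
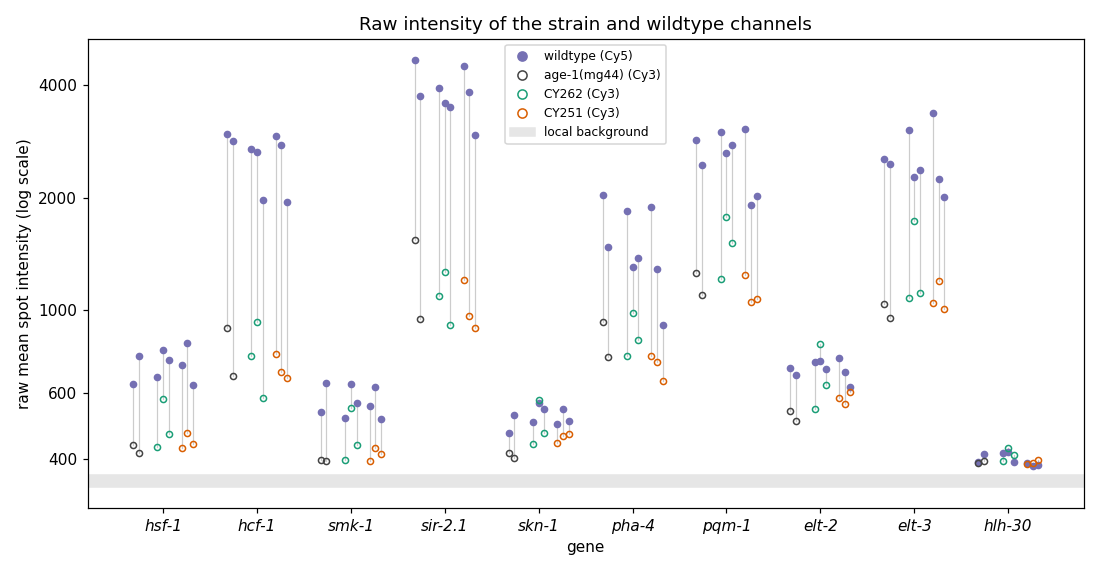
Raw mean spot intensity (log axis) of each gene in the wildtype channel (filled) and the strain channel (open) of every array, joined by a line for each array, with the range of local background shaded. *hlh-30* lies just above the background of 338 to 362, and the intensities of different genes come from different probes and are not to be compared.

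Against wildtype, 4 of the 10 regulators were lower in all 3 strains: *hsf-1*, *hcf-1*, *smk-1* and *sir-2.1*. In *age-1(mg44)* these 4 were the only ones past the threshold (limma adjusted p under 0.05 over all genes), where 8.03% of 18865 genes were called lower and 11.6% higher. In CY262, 4 were lower and 2 higher, *elt-2* and *pqm-1*, where 14.3% of 18877 genes were called lower and 18.1% higher. In CY251, 4 were lower and 1 higher, *elt-2*, where 12.7% of 18873 genes were called lower and 18.3% higher. The counts of the gene lists below are to be read beside these same shares. The median log2 fold change over the 10 genes was -0.12, 0.13 and 0.08 in *age-1(mg44)*, CY262 and CY251, beside -0.01 for all genes in each strain.

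**Figure D2:**
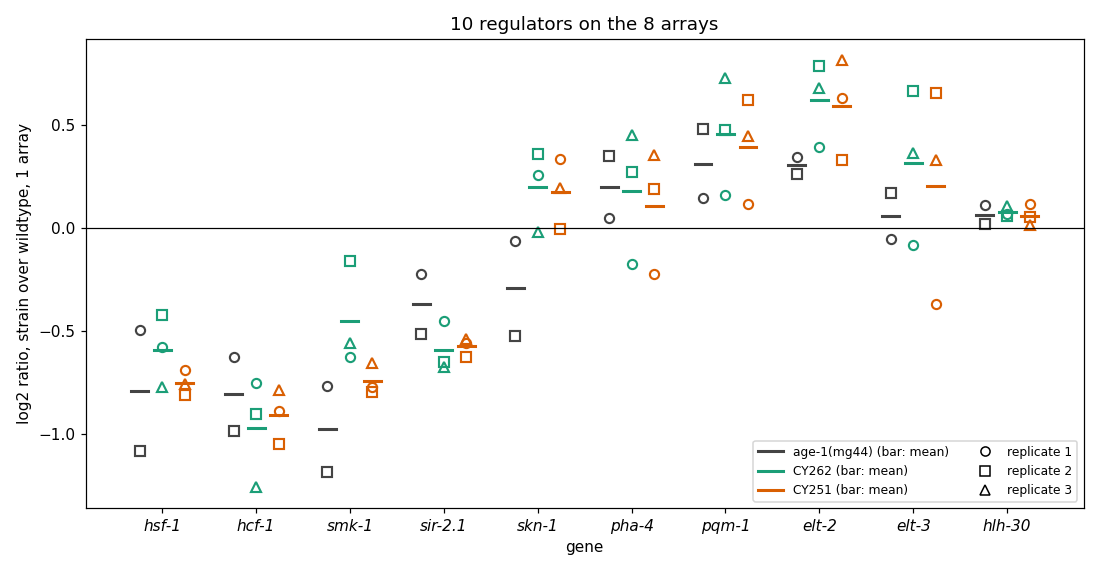
Log2 ratio of strain over wildtype for each gene on each of the 8 arrays, with symbols for the replicate and a bar for the strain mean. *hsf-1*, *hcf-1*, *smk-1* and *sir-2.1* lie below 0 on all 8 arrays, and *elt-2* and *pqm-1* above 0 on all 8.

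The *hsf-1* gene encodes the heat shock transcription factor. Its log2 ratios were -0.50 and -1.08 for *age-1(mg44)* animals, -0.58, -0.42 and -0.77 for CY262 and -0.69, -0.81 and -0.76 for CY251. All 8 values were below 0, and the values of the 3 strains overlapped. The fitted log2 fold changes were -0.79 ± 0.15 (SE, n = 2) for *age-1(mg44)* animals, -0.59 ± 0.12 (n = 3) for CY262 and -0.75 ± 0.12 (n = 3) for CY251, with adjusted p of 0.0153, 0.0125 and 0.00463. In *age-1(mg44)* the call was lost without replicate 2, at -0.50, in a fit that leaves this strain 1 array. Here and below, calls over all genes shrank in such fits too. A call lost in one is thus not particular to its gene or list. The call in CY262 was lost without its replicate 3 (-0.50, adjusted p = 0.0703).

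Genes for proteins that bind or inhibit HSF-1 were read beside it. Of 5 genes (*hsb-1*, *ddl-1*, *ddl-2*, *daf-21* and *hsp-1*), 1 fell in *age-1(mg44)* and 2 in each of CY262 and CY251, and none rose. The list medians were -0.12, -0.36 and -0.29. The genes that fell were the chaperones: *hsp-1*, the constitutive HSP70, at -2.39, -1.33 and -1.09, and *daf-21*, the HSP90 gene, at -1.16 in CY262 and -1.15 in CY251, where its value in *age-1(mg44)* was -0.86 with an adjusted p of 0.102. The *daf-21* probe was saturated on 4 arrays, and the *hsp-1* spot was an outlier left out on replicate 1 of *age-1(mg44)* and of CY262, so its *age-1(mg44)* value is that of 1 array. None fell in *age-1(mg44)* without its replicate 2, in CY262 without its replicate 2 or 3, or in CY251 without its replicate 3, and 1 fell in CY251 without its replicate 2.

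The transcripts that HSF-1 drives on heat shock gave no call. None of the 7 measured genes (*hsp-16.1*, *hsp-16.2*, *hsp-16.41*, *hsp-16.48*, *hsp-70*, F44E5.4 and *hsp-12.6*) passed the threshold in any strain. Over the list, the log2 fold change had a median of 2.41 for *age-1(mg44)* animals, 0.05 for CY262 and -0.59 for CY251. The arrays of 1 strain lay far apart. The median over the list was -0.37 on one *age-1(mg44)* array and 4.53 on the other, ran from -0.63 to 1.42 on the CY262 arrays and from -2.48 to 1.78 on the CY251 arrays. For *hsp-16.48*, a small heat shock protein, the log2 ratios were -0.37 and 5.35 for *age-1(mg44)* animals, -1.86, 0.09 and 1.63 for CY262 and -2.82, 1.85 and -0.63 for CY251. The *hsp-16* genes are near-identical pairs, and their probes may read more than 1 of them. The array with the highest heat shock signal, *age-1(mg44)* replicate 2, was also the one with the lowest *hsf-1* ratio.

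The *hcf-1* gene had the lowest fitted value of the 10 in CY262 and CY251. On the single arrays its log2 ratios were -0.62 and -0.98 for *age-1(mg44)* animals, -0.75, -0.90 and -1.26 for CY262 and -0.89, -1.05 and -0.79 for CY251. The strains overlapped and no array came near 0. The fitted changes were -0.80 ± 0.14 (SE, n = 2), -0.97 ± 0.12 (n = 3) and -0.91 ± 0.12 (n = 3), that is 1.75-, 1.96- and 1.88-fold lower, with adjusted p of 0.014, 0.00247 and 0.00231. In CY262 and CY251 the call held with each of the 8 arrays left out in turn. In *age-1(mg44)* it was lost when either of its own arrays was left out, at -0.98 and -0.62, which leaves 1 array.

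HCF-1 is known from mammals as a component of histone H3 lysine 4 methyltransferase complexes. Genes of that complex were read beside *hcf-1*. Of 6 measured genes, 3 fell for *age-1(mg44)* animals, 4 for CY262 and 4 for CY251, and none rose. The medians of the list were -0.53, -0.60 and -0.62, with single-array medians between -0.71 and -0.45 over all 8 arrays. The log2 fold changes in the 3 strains were -1.23, -0.98 and -0.99 for the methyltransferase *set-2*, -1.22, -0.88 and -1.07 for another methyltransferase, *set-16*, and -0.72, -0.56 and -0.67 for the scaffold *wdr-5.1*. The *age-1(mg44)* count was 0 without either of its arrays, that of CY262 was 0 without its replicate 3, 1 without replicate 2 and 2 without replicate 1, and that of CY251 was 2 without its replicate 1.

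The *smk-1* gene had the lowest fitted value of the 10 in *age-1(mg44)*. The log2 ratios on the arrays were -0.77 and -1.18 for *age-1(mg44)* animals, -0.63, -0.16 and -0.56 for CY262 and -0.77, -0.80 and -0.65 for CY251. Here *age-1(mg44)* lay below all CY262 arrays, and the 3 CY251 arrays were closest together. The fitted changes were -0.98 ± 0.14 (SE, n = 2), -0.45 ± 0.12 (n = 3) and -0.74 ± 0.12 (n = 3), with adjusted p of 0.00773, 0.0275 and 0.00439. Leaving out replicate 2, which leaves 1 array, ended the *age-1(mg44)* call, at -0.77. The CY262 call ended without its replicate 1 (adjusted p = 0.113) or replicate 3 (0.13). The highest value, -0.16, was that of CY262 replicate 2, the array with the separate image quantification day and the bright strain channel. Without it the CY262 value was -0.59, still past the threshold at an adjusted p of 0.0247. Of 5 other phosphatase 4 genes, *ppfr-4*, a regulatory subunit gene, fell in CY262 at -0.84. None was called in *age-1(mg44)* or CY251, where *ppfr-4* was at -0.52 and -0.72. In each strain 1 of the 5 was above 0. The list medians were -0.18, -0.20 and -0.28.

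Among 14626 genes well above background in both channels of all arrays, the 3 whose ratios followed *smk-1* most closely over the 8 arrays were *mca-3*, a plasma membrane calcium pump (Pearson r = 0.994), *cgp-1*, a GTP-binding protein gene (0.982), and *paqr-2*, an adiponectin receptor-type gene (0.979). These correlations are descriptions over 8 arrays of 3 strains that share the dye orientation and may share wildtype RNA. The mean log2 ratios in *age-1(mg44)*, CY262 and CY251 were -0.48, -0.07 and -0.29 for *mca-3*, -0.59, -0.27 and -0.47 for *cgp-1* and -0.36, -0.03 and -0.17 for *paqr-2*, a pattern fixed by how they were chosen.

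The *sir-2.1* gene encodes the worm sirtuin most similar to yeast Sir2. Its log2 ratios were -0.22 and -0.51 for *age-1(mg44)* animals, -0.45, -0.65 and -0.67 for CY262 and -0.56, -0.63 and -0.54 for CY251. It was the least variable of the 4 lower genes, with an SD of 0.14 over the 8 arrays against 0.20 for *hcf-1*, 0.21 for *hsf-1* and 0.28 for *smk-1*. The fitted changes were -0.37 ± 0.09 (SE, n = 2), -0.59 ± 0.08 (n = 3) and -0.57 ± 0.08 (n = 3), with adjusted p of 0.0383, 0.00297 and 0.00252. The calls in CY262 and CY251 held with each array left out. In *age-1(mg44)* the call held in only 1 of the 8 such fits, with adjusted p from 0.0419 to 0.374. The other sirtuins did not move together: *sir-2.3*, a mitochondrial sirtuin, fell in all 3 strains at -0.71, -1.16 and -1.16, whereas *sir-2.2* rose in *age-1(mg44)* at 0.39 and in CY251 at 0.30, and was at 0.21 in CY262. The direction of *sir-2.2* turned with median centring in place of loess, to -0.24, -0.31 and -0.36.

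**Figure D3:**
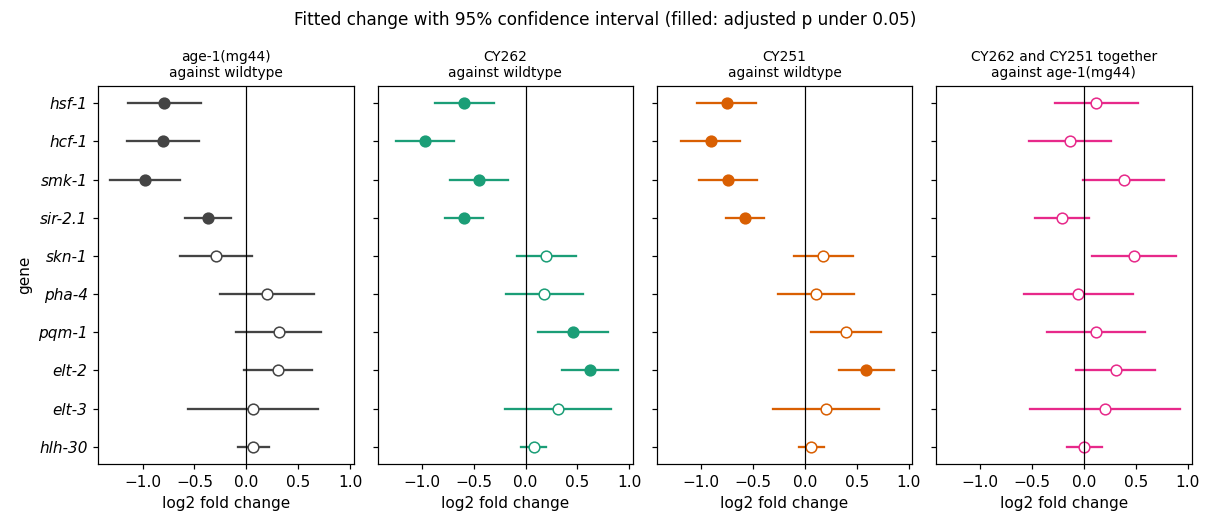
Fitted log2 fold change of each gene with its 95% confidence interval, for the 3 strains against wildtype and for CY262 and CY251 together against *age-1(mg44)*; filled points passed an adjusted p of 0.05. The intervals of *hsf-1*, *hcf-1*, *smk-1* and *sir-2.1* lie below 0 in all 3 strains, and no point is filled in the comparison with *age-1(mg44)*.

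The *elt-2* gene, which encodes the main GATA factor of the intestine, went the other way. By array, its log2 ratios were 0.34 and 0.26 for *age-1(mg44)* animals, 0.40, 0.79 and 0.68 for CY262 and 0.63, 0.33 and 0.82 for CY251. All 8 values were above 0, and 5 of the 6 transgenic arrays were above both *age-1(mg44)* arrays. It rose in CY262 by 0.62 ± 0.11 (SE, n = 3) and in CY251 by 0.59 ± 0.11 (n = 3), with adjusted p of 0.00856 and 0.00876, and both calls held with each array left out. Both ended with median centring in place of loess, at 0.28 and 0.18, and the CY251 value was -0.017 on mean-scaled signal. In *age-1(mg44)* it was at 0.30 ± 0.14 (n = 2; adjusted p = 0.167).

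The zinc-finger factor PQM-1 is known to act in opposition to DAF-16. The *pqm-1* log2 ratios were 0.15 and 0.48 for *age-1(mg44)* animals, 0.16, 0.48 and 0.73 for CY262 and 0.12, 0.62 and 0.45 for CY251. All were above 0, and within each strain the replicate 1 array was the lowest. It rose in CY262 by 0.46 ± 0.14 (SE, n = 3) with an adjusted p of 0.0475, close to the threshold, and was at 0.40 ± 0.14 in CY251 (0.0754) and 0.31 ± 0.17 in *age-1(mg44)* (0.246). Its direction turned past the threshold with median centring in place of loess, at -0.62, -0.48 and -0.58 in *age-1(mg44)*, CY262 and CY251, and was -0.73 in CY262 on mean-scaled signal. The CY262 call was kept in 2 of 8 fits with an array left out, with adjusted p up to 0.216, and was lost by the strain assignment of the deposited log ratio table (0.0639).

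The hypodermal GATA factor gene *elt-3* was the most variable of the 10, with an SD of 0.37 over the 8 arrays. Its log2 ratios were -0.05 and 0.17 for *age-1(mg44)* animals, -0.08, 0.67 and 0.37 for CY262 and -0.37, 0.65 and 0.33 for CY251. The 3 replicate 1 arrays were below 0 and the other 5 above. The fitted changes of 0.06, 0.32 and 0.20 had 95% intervals of -0.57 to 0.69, -0.19 to 0.83 and -0.31 to 0.72. None was past the threshold, and the data bound the change only loosely.

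Among 10 further GATA factor genes, 1 fell in CY262, and in CY251 1 fell and 1 rose. These were *egl-18*, a hypodermal factor, at -0.67 in CY262 and -0.76 in CY251 (-0.65 in *age-1(mg44)*, adjusted p = 0.0586), and *end-3*, an endoderm factor of the embryo, at 0.57 in CY251 (0.13 and 0.49 in the other strains). The list medians were -0.08, 0.07 and -0.04.

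The *pha-4* log2 ratios were 0.05 and 0.35 for *age-1(mg44)* animals, -0.18, 0.27 and 0.45 for CY262 and -0.22, 0.19 and 0.36 for CY251. As for *elt-3*, the replicate 1 array was the lowest in each strain. The fitted changes of 0.20, 0.18 and 0.11 had 95% intervals from -0.25 to 0.65, -0.19 to 0.55 and -0.26 to 0.48. None of 6 pharyngeal genes known to lie downstream of PHA-4 was called in any strain, with medians of 0.24, 0.07 and -0.02. The 4 pharynx markers are all among these 6 genes and add no further result, with medians of 0.06, -0.01 and -0.08.

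The *skn-1* gene encodes the Nrf-type factor of the oxidative and xenobiotic stress response. The ratios of its probe, on the log2 scale, were -0.06 and -0.52 for *age-1(mg44)* animals, 0.26, 0.36 and -0.02 for CY262 and 0.34, -0.004 and 0.20 for CY251. On this probe both *age-1(mg44)* arrays were below all 6 arrays of the other strains, narrowly for replicate 1 (-0.06, against -0.02 in CY262). Against wildtype no strain passed the threshold, at -0.29 ± 0.15 (SE, n = 2), 0.20 ± 0.12 (n = 3) and 0.18 ± 0.12 (n = 3). The other *skn-1* probe, which reads transcript T19E7.2b, gave -0.26, 0.01 and -0.03, also without a call. On that probe CY251 replicate 2, at -0.20, was below *age-1(mg44)* replicate 1, at -0.06.

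Transcripts that SKN-1 is known to activate were read beside it. Of 12 detoxification genes, 8 rose in *age-1(mg44)* with none lower, 7 rose and 1 fell in CY262, and 6 rose and 1 fell in CY251. The list medians were 1.44, 0.77 and 0.72, and the single-array medians of 1.13 and 1.39 in *age-1(mg44)* were above those of the 6 other arrays, which ran from 0.36 to 1.06. The log2 fold changes were 3.59, 3.30 and 2.74 for *gst-38*, 2.83, 1.90 and 1.76 for *gst-10*, and 2.39, 1.07 and 0.87 for *gst-4*, all glutathione S-transferase genes, where the last value of *gst-4* had an adjusted p of 0.0766. In the comparison of CY262 and CY251 together with *age-1(mg44)*, 0 of the 12 were called, at a median of -0.65. The counts shrank with 1 array left out: in CY262 3 rose without replicate 3 and 4 without replicate 2. In CY251 2 rose without replicate 2 and 3 without replicate 3. Calls over all genes shrank too, from 6119 to 3225 and 3300 in CY262 and from 5852 to 3450 and 3893 in CY251. In *age-1(mg44)* leaving out an array leaves 1, and calls over all genes shrank then too. Whether its count of 8 is stable is not known. Its single-array medians were 1.13 and 1.39, as given. The *gst-4* value in CY262 turned to -0.22 on mean-scaled signal. Of 8 regulators of SKN-1, only *gsk-3*, a kinase that inhibits it, was called, at -0.22 in CY262 (-0.29 and -0.12 in the other strains), and the list medians were -0.29, -0.19 and -0.18.

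The *hlh-30* log2 ratios were 0.11 and 0.02 for *age-1(mg44)* animals, 0.07, 0.06 and 0.11 for CY262 and 0.12, 0.05 and 0.01 for CY251. They were positive on all 8 arrays with an SD of 0.04, on a probe whose signal was near background. The fitted changes of 0.07, 0.08 and 0.06 had 95% intervals within -0.08 and 0.21. A signal so near background compresses ratios towards 0, so these intervals bound the measured ratio and not the transcript. Among 5 related Myc-family genes, 1 fell in *age-1(mg44)*, and 3 fell and 1 rose in both CY262 and CY251. They were *mxl-2*, the partner of MML-1, at -0.34, -0.39 and -0.36, *mxl-1* at -0.16, -0.60 and -0.54, *mml-1* at -0.35, -0.29 and -0.29 (named after its values were seen), and *mdl-1*, a Mad-type repressor, at 0.51, 0.73 and 0.58. The *mdl-1* direction turned with median centring, to -0.43, -0.20 and -0.40.

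Autophagy and lysosomal genes, among them known HLH-30 targets, were mixed. Of 14 genes, 1 rose and 2 fell in *age-1(mg44)*, 3 rose and 2 fell in CY262, and 2 rose and 3 fell in CY251. The lysosomal lipase *lipl-1* was at 2.42, 1.86 and 1.67, the proton pump subunit *vha-17* at 0.92, 1.07 and 0.82 (called in CY262), and *atg-9*, an autophagy membrane protein, at -1.09, -1.17 and -1.15. The medians of 0.20, 0.05 and -0.08 were near that of all genes.

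**Figure D4:**
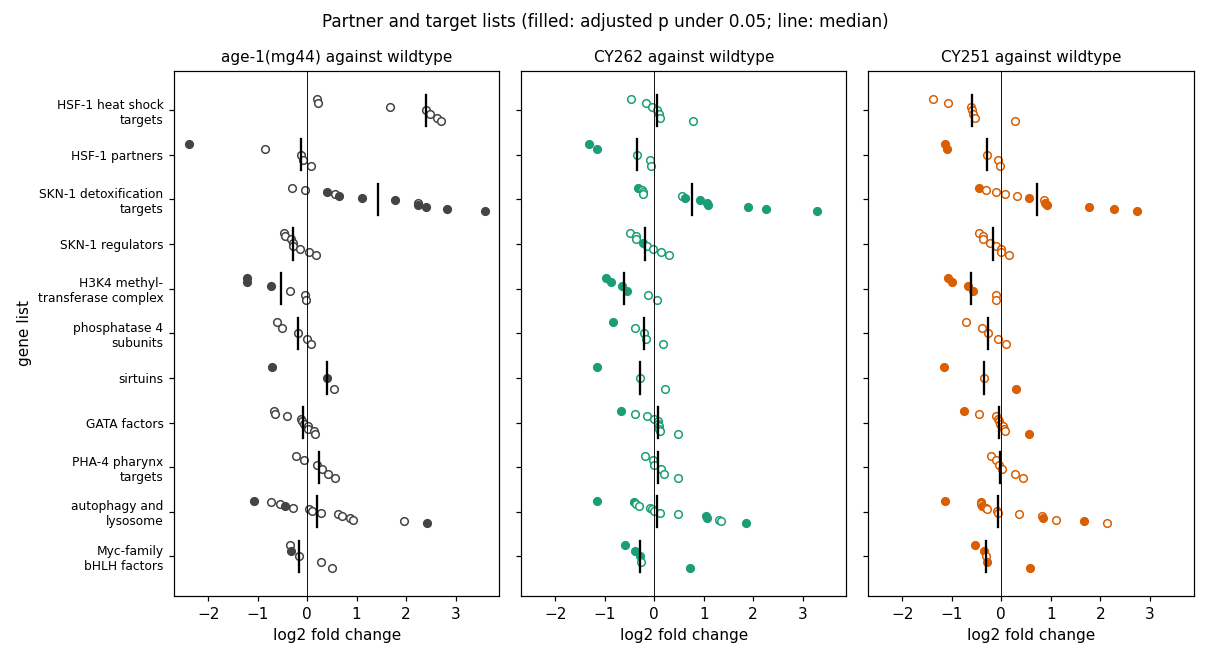
Log2 fold change against wildtype of every measured gene in the lists of partners and targets of the 10 regulators, 1 panel for each strain; filled points passed an adjusted p of 0.05 and the vertical line is the list median. The detoxification genes lie to the right (medians 1.44, 0.77 and 0.72) and the histone methyltransferase genes to the left (medians -0.53, -0.60 and -0.62), while no heat shock target is filled.

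The insulin pathway upstream of these regulators and other stress factors were read from the same fits. Of 13 insulin signalling genes, 4 fell in each strain, and 0, 5 and 2 rose. None fell in *age-1(mg44)* without either of its arrays, none rose in CY262 without its replicate 2 or 3, and with 1 array left out the number that rose ran from 0 to 5 in CY262 and from 0 to 2 in CY251. The lipid phosphatase *daf-18*, which opposes AGE-1, was at -1.95, -1.92 and -1.76, *age-1* at -1.35, -1.47 and -1.45, and the 14-3-3 gene *ftt-2* at -0.05, 0.80 and 0.44 (called in CY262). The *daf-16* transcript was at -0.08 in *age-1(mg44)* (adjusted p = 0.644) and rose by 0.40 in CY262 and 0.31 in CY251, but turned past the threshold to -0.53 and -0.69 with median centring. The direction of *ftt-2* turned too, to -0.066 in CY262 and -0.50 in CY251. Of 22 other longevity and stress factors, *daf-16* included, 4, 4 and 6 fell and 1, 4 and 2 rose, with medians of -0.15, 0.01 and -0.06. Over all genes, 8.03%, 14.3% and 12.7% were called lower and 11.6%, 18.1% and 18.3% higher. The elongation factor *tcer-1* was at -1.72, -1.45 and -1.27, the p53 gene *cep-1* at -0.51, -0.80 and -0.70 (called in CY262 and CY251), and *zip-2*, an infection-response factor, at 0.23, 0.80 and 0.53 (called in CY262, where it was -0.24 on mean-scaled signal).

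Between strains, none of the 10 regulators passed the threshold. In CY262 against *age-1(mg44)*, 0 of 10 were called, where 0.0265% of 18865 genes were, and 2 had an unadjusted limma p under 0.05. In CY251 against *age-1(mg44)*, 0 were called, where 0.0053% of 18862 genes were, and 1 had an unadjusted p under 0.05. In CY262 against CY251, 0 were called, where 0% of 18873 genes were, and none had an unadjusted p under 0.05. For CY262 and CY251 together against *age-1(mg44)*, 0 were called, where 0.0265% of 18862 genes were, and 1 had an unadjusted p under 0.05. In every alternative tried, the methods' t-test included, the count stayed at 0.

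The largest such differences were those of *skn-1* and *smk-1*. The *skn-1* transcript was higher than in *age-1(mg44)* by 0.49 in CY262 (95% interval 0.04 to 0.94, adjusted p = 0.71) and by 0.47 in CY251 (0.02 to 0.92, adjusted p = 0.721), and by 0.48 in both together (0.08 to 0.88, adjusted p = 0.562). The other *skn-1* probe gave 0.27 (-0.08 to 0.62) in CY262, 0.23 (-0.12 to 0.58) in CY251 and 0.25 (-0.07 to 0.56) in both together. All of its intervals include 0. The *smk-1* transcript was higher by 0.53 in CY262 (0.09 to 0.96, adjusted p = 0.666) and by 0.24 in CY251 (-0.20 to 0.67). For both strains together *smk-1* was higher by 0.38 (-0.01 to 0.77), *elt-2* by 0.30 (-0.07 to 0.68), and *sir-2.1* was at -0.21 (-0.47 to 0.04). The *hsf-1* difference was 0.12 (-0.28 to 0.52) and that of *hcf-1* was -0.14 (-0.53 to 0.26). These intervals leave room for changes of about the size seen against wildtype for some genes, so a missed threshold does not show that the strains had equal levels.

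Markers of cell types and stage moved with the comparisons with wildtype. Of 11 oocyte and early embryo markers, 8, 9 and 8 fell in *age-1(mg44)*, CY262 and CY251 and none rose, with array medians from -2.13 to -1.02, -1.58 to -0.87 and -1.52 to -0.91. The maternal genes *mex-6* (-2.1, -1.45 and -1.64), *mex-5* (-1.93, -1.12 and -1.35) and the eggshell gene *cbd-1* (-2.04, -1.41 and -1.51) were examples. Of 8 germline markers, 2 fell in each strain, *glp-1* (-1.45, -1.03 and -1.15) and *glh-2* (-1.62, -1.23 and -1.07), with array medians from -1.60 to -0.38, -1.15 to 0.04 and -0.96 to -0.01. The markers that fell had the direction of *hsf-1*, *hcf-1*, *smk-1* and *sir-2.1*, and their part in those 4 results was not tested. The oocyte counts also shrank with 1 array left out: in CY262 1 marker fell without replicate 3 and 4 without replicate 2. In CY251 4 fell without replicate 2 or 3. Calls over all genes shrank too, from 6119 to 3225 and 3300 in CY262 and from 5852 to 3450 and 3893 in CY251. In *age-1(mg44)* leaving out an array leaves 1, and calls over all genes shrank then too. Whether its count is stable is not known. In whole-animal RNA, fewer cells of a type and less RNA per cell cannot be told apart.

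Markers of the intestine moved in the direction of *elt-2*. Of 9, 5, 6 and 6 rose and none fell, with array medians from 0.74 to 0.78, 0.83 to 0.97 and 0.65 to 1.29. The counts in CY262 and CY251 stayed at 6 with each array left out, and whether that in *age-1(mg44)* is stable is not known. Examples were *act-5* (1.61, 2.33 and 2.28), *ifb-2* (1.45, 2.19 and 2.17) and *ges-1* (1.77, 1.90 and 2.14). Of 8 hypodermal and cuticle markers, 2, 4 and 4 rose and 1 fell in each strain, with array medians from 0.58 to 0.67, 0.57 to 0.998 and 0.25 to 1.10. The adult collagen gene *col-19* was at 3.54, 3.20 and 3.29, saturated on 4 arrays, and *dpy-5* at 1.91, 2.50 and 2.33. The *sqt-3* gene was at 0.61, 0.94 and 0.60, not called in *age-1(mg44)*. What fell among these markers is not one of the named genes. The part of these markers in the *elt-2* and *elt-3* values was not tested.

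Of 6 body wall muscle markers, 2, 5 and 5 rose, among them *tni-1* (2.24, 2.53 and 2.66), *lev-11* (1.23, 2.16 and 2.15) and *myo-3* (0.72, 2.11 and 2.4, the first not called), with array medians from -0.05 to 1.49, 1.07 to 2.44 and 1.24 to 2.34. Of 8 sperm markers, 3, 6 and 6 rose, among them *msp-142* (5.18, 5.76 and 6.46), *msp-56* (5.71, 5.01 and 4.97, saturated on 4 arrays) and *spe-11* (2.95, 3.41 and 4.26), with array medians from 0.80 to 1.13, 0.49 to 2.37 and 1.61 to 2.63. The *msp* genes are a family of near-identical copies whose probes may read several members. With 1 array left out, 3 to 5 muscle markers rose in CY262 and 4 to 5 in CY251. For sperm markers the counts were 3 to 6 and 5 to 6. Whether the muscle and sperm counts in *age-1(mg44)* are stable is not known. Of 8 neuronal markers, 1, 3 and 2 rose, *ric-19* (0.73, 0.70 and 0.75), *rab-3* (0.33, 0.44 and 0.45) and *sng-1* (0.25, 0.29 and 0.28), where *rab-3* turned with median centring to -0.54, -0.35 and -0.39. None of 5 yolk protein genes was called, at medians of -1.25, -0.15 and -0.32.

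The direction of several regulators depended on the normalization. The loess curve removes, on each array, any trend of the log ratio with intensity. With each array centred on its median and no curve, *pqm-1* turned as stated with its values, *pha-4* turned to -0.63, -0.53 and -0.63 and *elt-3* to -0.86, -0.60 and -0.79, all past the threshold, and the called genes grew from 3709 to 11238 in *age-1(mg44)*. The decreases of *hsf-1*, *hcf-1*, *smk-1* and *sir-2.1* kept their direction in every normalization tried, when read relative to the median of all genes. Their size did not hold. Over all alternatives, z-score differences included, the *age-1(mg44)* value ran from -2.02 to -0.21 for *smk-1* and from -1.33 to -0.28 for *hsf-1*. It ran from -1.70 to -0.62 for *hcf-1* and from -1.48 to -0.22 for *sir-2.1*. For *smk-1* and *hsf-1* the strain channel was also dim, so their sizes are loosely bounded. With median centring *hlh-30* was past the threshold at 0.49, 0.40 and 0.45.

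**Figure D5:**
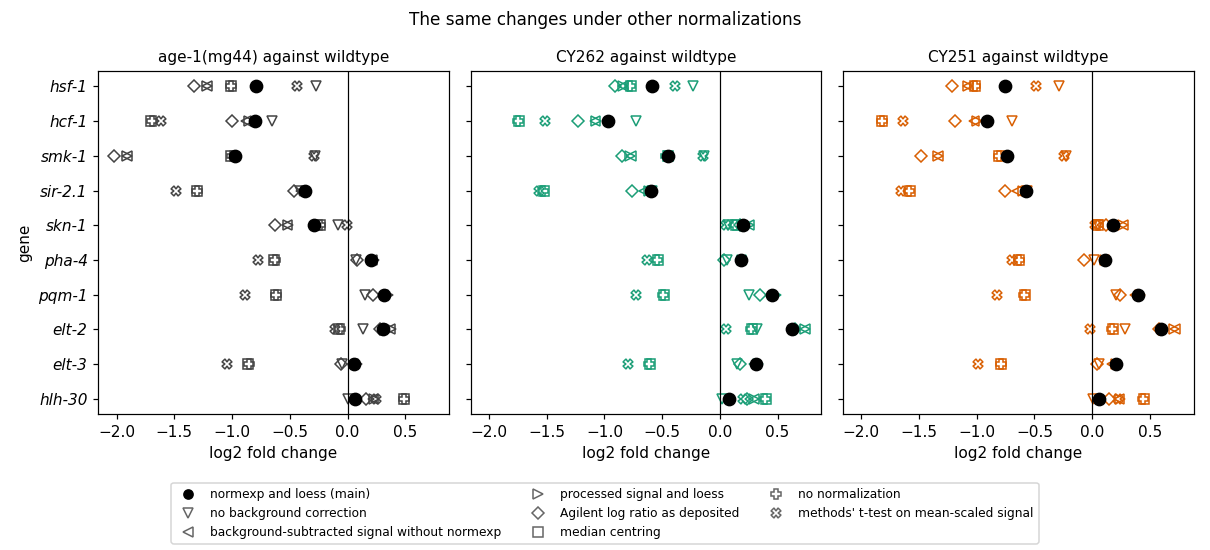
Log2 fold change of each gene against wildtype with normexp and loess (black) and under 7 other treatments of the signal (open symbols), where those with no normalization and on mean-scaled signal are relative to the median of all genes. *hsf-1*, *hcf-1*, *smk-1* and *sir-2.1* stay below 0 throughout, whereas *pha-4*, *pqm-1* and *elt-3* lie below 0 with median centring.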

How the data were processed

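Each array was 1 replicate, with 2 arrays of *age-1(mg44)* and 3 each of CY262 and CY251. The article gives 3 replicates of N2, so arrays may share wildtype RNA. The authors scanned the slides on an Agilent scanner, and Agilent Feature Extraction A.7.5.1 quantified the images, per the file headers. The deposited intensity values are raw mean spot signals, local background and processed signals, and the deposited log10 ratios, in the array files and in the series table, are wildtype over strain, with the sign turned here. In R 4.3.3 with limma 3.58.1, raw intensity was background-corrected by normexp (offset 50), normalized by loess and turned to log2 of strain over wildtype. Outlier spots and probes with a raw wildtype mean of 100 or less (0 probes) were left out. The brightest probe stood for each gene. One model (lmFit, eBayes) with a mean per strain was fitted to all 8 arrays, with Benjamini-Hochberg adjustment over all genes and a threshold of 0.05. The 7 comparisons are the 3 strains against wildtype, their 3 differences, and CY262 and CY251 together against *age-1(mg44)*. The scripts were tested on simulated data.

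The members, the 22 lists (188 entries, 183 on the array) and the tests were chosen with earlier results of these data known. All 10 members are described. From each list, the 3 genes with the largest absolute change among those called in at least 1 strain are named, with *daf-16* and *age-1*, and for *smk-1* the 3 genes most like it. The heat shock targets that were measured are named although none was called. The array number limits the precision. Probe and promoter sequences were not used here. Names came from RefSeq for 18124 of the 18877 genes. The study's t-test on mean-scaled signals and on z-scores of log10 signals is among the alternatives ("the methods' t-test").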

Additional observations from a re-analysis of the deposited data

How the results depend on the processing

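The directions of *hcf-1*, *sir-2.1*, *hsf-1* and *smk-1* against wildtype held under every alternative, read relative to the median of all genes. Over the 10 regulators, 1817 values under alternatives were compared with the reported ones: 73 lost the threshold, 13 passed it newly, 24 reversed, and 130 changed sign without being called either way. For the named list genes the numbers were 3654, 548, 47, 60 and 39. The cause of these changes was not tested. With 2 or 3 arrays per strain and no dye swap, small changes lie beyond the precision of these arrays. For *hlh-30*, with a signal near background, the measured ratio bounds the change of the transcript little.

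The number of regulators past the threshold in *age-1(mg44)* was 4. It was 8 with median centring, 9 with no normalization, and 0 with only the compared strain in the fit, with the methods' t-test on mean-scaled signal, with that on z-scores, and with only the 4 arrays whose records agree, the last an alternative chosen after seeing the data, which leaves 1 array each of CY262 and CY251, assumed to vary like *age-1(mg44)*, so that its counts of 0 say little about stability. Leaving out 1 array at a time gave 0 to 4, with 0 without *age-1(mg44)* replicate 2 and 2 without its replicate 1. In CY262 the number was 6, and 2 with z-scores, 0 with the 4 arrays and 3 to 6 with 1 array left out, 3 being without CY262 replicate 3. In CY251 it was 5, and 8 with median centring, 9 with no normalization and 0 with the 4 arrays. It stayed at 5 with each array left out. With the strains of the log ratio table the counts were 4, 5 and 5, and with the replicate 2 arrays of CY262 and CY251 exchanged 4, 6 and 5. The count in the comparisons between strains was 0 in every alternative.

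All genes called in *age-1(mg44)*, CY262 and CY251 numbered 3709, 6119 and 5852. They numbered 2454, 5568 and 5121 with no background correction, 11238, 11813 and 12503 with median centring, and 11825, 11664 and 12761 with no normalization, of which 11356, 10819 and 11847 were lower. With only the compared strain they were 872, 3098 and 3604, with the 4 arrays 872, 239 and 607, with the t-test on mean-scaled signal 4, 11688 and 12569, and on z-scores 1, 2084 and 10291. No normalization moved the median of all genes to -0.84, -0.62 and -0.72 and mean scaling to 0.54, 0.43 and 0.47, so values under both are given relative to those medians. With 1 of its own arrays left out, CY262 had 3225 to 4228 called genes and CY251 had 3450 to 4182.

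When the replicate number entered the fit as a block, 6, 7 and 6 regulators and 5733, 9032 and 8601 genes were called. Within a number, deviations from strain means correlated at -0.16 to 0.786, with 6 of 7 pairs above 0.1. Across numbers they correlated at -0.776 to 0.488, with 4 of 14 pairs above 0.1. Deviations cancel within a strain, and those of both *age-1(mg44)* arrays mirror each other. Negative values across numbers are thus partly built in, and some pairs repeat others. The replicate 1 arrays shared deviations across strains, at correlations of 0.745, 0.786 and 0.607. The other pairs within a number were less alike, at -0.16 to 0.548. The source of the shared deviations was not tested, and the reported fit has no block for them. The day of image quantification as a block equals leaving out CY262 replicate 2, the only array of its day, and was not run separately.

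Values that reversed with median centring follow. Here *pha-4* was at -0.63 for *age-1(mg44)* animals, -0.53 for CY262 and -0.63 for CY251 and *pqm-1* was at -0.62 for *age-1(mg44)* animals, -0.48 for CY262 and -0.58 for CY251. *elt-3* was at -0.86 for *age-1(mg44)* animals, -0.60 for CY262 and -0.79 for CY251 and *rab-3* was at -0.54 for *age-1(mg44)* animals, -0.35 for CY262 and -0.39 for CY251. *sir-2.2* was at -0.24 for *age-1(mg44)* animals, -0.31 for CY262 and -0.36 for CY251 and *zip-2* was at -0.56 in *age-1(mg44)*. *mdl-1* was at -0.43 for *age-1(mg44)* animals, -0.20 for CY262 and -0.40 for CY251 and *ftt-2* was at -0.066 in CY262 and -0.50 in CY251. The *daf-16* was at -0.53 in CY262 and -0.69 in CY251 and *gsk-3* was at 0.14 in CY262.

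With no normalization these reversed. Here *elt-2* was at -0.067 in *age-1(mg44)* and *pha-4* was at -0.63 for *age-1(mg44)* animals, -0.54 for CY262 and -0.63 for CY251. *pqm-1* was at -0.62 for *age-1(mg44)* animals, -0.49 for CY262 and -0.59 for CY251 and *elt-3* was at -0.86 for *age-1(mg44)* animals, -0.62 for CY262 and -0.79 for CY251. *rab-3* was at -0.54 for *age-1(mg44)* animals, -0.36 for CY262 and -0.40 for CY251 and *sir-2.2* was at -0.24 for *age-1(mg44)* animals, -0.32 for CY262 and -0.36 for CY251. *end-3* was at -0.31 in *age-1(mg44)* and *zip-2* was at -0.55 in *age-1(mg44)* and -0.35 in CY251. The *mdl-1* was at -0.43 for *age-1(mg44)* animals, -0.21 for CY262 and -0.41 for CY251 and *sng-1* was at -0.031 in *age-1(mg44)*. *ftt-2* was at -0.077 in CY262 and -0.50 in CY251 and *daf-16* was at -0.54 in CY262 and -0.70 in CY251. *gsk-3* was at 0.13 in CY262 and *gst-4* was at -0.12 in CY251.

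In the methods' t-test on mean-scaled signal these reversed. Here *pqm-1* was at -0.73 in CY262 and *elt-2* was at -0.017 in CY251. *elt-3* was at -0.99 in CY251 and *sir-2.2* was at -0.35 in *age-1(mg44)* and -0.43 in CY251. *lev-11* was at -0.072 in *age-1(mg44)* and *rab-3* was at -0.52 in CY262 and -0.54 in CY251. *vha-17* was at -0.11 in CY262 and *ftt-2* was at -0.37 in CY262. The *zip-2* was at -0.24 in CY262 and *gst-4* was at -0.22 in CY262. *mdl-1* was at -0.48 in CY262 and -0.66 in CY251 and *daf-16* was at -0.81 in CY262 and -1.02 in CY251. *sng-1* was at -0.020 in CY262 and *gsk-3* was at 0.14 in CY262 and 0.19 in CY251. *end-3* was at -0.12 in CY251.

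In the methods' t-test on z-scores of log10 signal, in differences of z-scores, these reversed. Here *pqm-1* was at -0.13 in CY262 and *elt-3* was at -0.35 in CY251. *sir-2.2* was at -0.072 in *age-1(mg44)* and -0.13 in CY251 and *rab-3* was at -0.10 in CY262 and -0.14 in CY251. *daf-16* was at -0.092 in CY262 and -0.23 in CY251 and *gsk-3* was at 0.083 in CY262 and 0.11 in CY251. *mdl-1* was at -0.11 in CY251.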
